A study of Mus musculus with 18 samples.

Results

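Hearts of mice treated with FG-4497, a compound that blocks the EglN oxygen sensors, were compared with hearts of mice given vehicle. The comparison rests on 6 of the 18 Affymetrix arrays of the study, the 3 titled as FG-4497 hearts and the 3 titled as control hearts. The other 12 arrays are soleus and quadriceps of mice that carry a tamoxifen-inducible, skeletal muscle-specific Cre, with EglN1 floxed (KO) or wild type (WT), in groups of 3. All heart mice were EglN1 WT and back-crossed to C57BL/6, were fed chow without restriction, and received either vehicle or FG-4497 at 50 mg/kg by the intraperitoneal route. The labels call the 3 hearts of a group biological replicates and say that control hearts were taken at the same time as treated ones. They give no number of doses, no time between dose and harvest, and no age. RNA was made from homogenised heart muscle, so a change in a gene of 1 cell type cannot be told apart from a change in the number of such cells.

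The EglN proteins, also called prolyl hydroxylase domain proteins, use oxygen to hydroxylate the alpha chains of hypoxia-inducible factors (HIF-1 and HIF-2), which marks these for destruction through the von Hippel-Lindau protein. When oxygen is low or the enzymes are inhibited, the alpha subunits persist, pair with ARNT and switch on genes for glucose uptake and glycolysis, for vessel growth and tone, and for feedback on the pathway itself. The core DNA letters that the pair recognises are ACGTG and GCGTG. In the heart, cardiomyocytes burn mainly fatty acids and are surrounded by a dense network of capillary endothelium, and both cell types respond to HIF.

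Of 13432 genes tested with limma on the log2 values, 238 differed at a Benjamini-Hochberg adjusted p under 0.05, which is 1.77% of the genes tested. Among them 174 were higher with FG-4497 (1.3%) and 64 were lower (0.476%). The change exceeded 2-fold in 38 of the higher and 3 of the lower genes. The shares called, 1.77% in all, 1.3% higher and 0.476% lower, are the background for the called counts of the lists below. An unadjusted limma p under 0.05 was reached by 1427 of the 13432 genes, the background for the unadjusted counts of the lists. Among the called genes the median change, given throughout as FG-4497 minus vehicle in log2, was 0.67 for the higher and -0.53 for the lower ones, against -0.00198 over all genes tested. In all 238 the 3 arrays of one group lay above the 3 of the other, a pattern that 2074 of the tested genes (15.4%) showed, 1123 with the treated hearts higher (8.36%) and 951 with them lower (7.08%). Leaving out 1 heart moved the count of 238 by more than 1.5-fold for vehicle replicate 2 (144 called), vehicle replicate 3 (137) and FG-4497 replicate 1 (157). In 7 called genes, the repressor Prdm1 (-0.81, adjusted p = 0.00845) among them, all arrays of one group lay below the level filter of 6.26, which is applied to the mean of the 6 hearts.

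**Figure D1:**
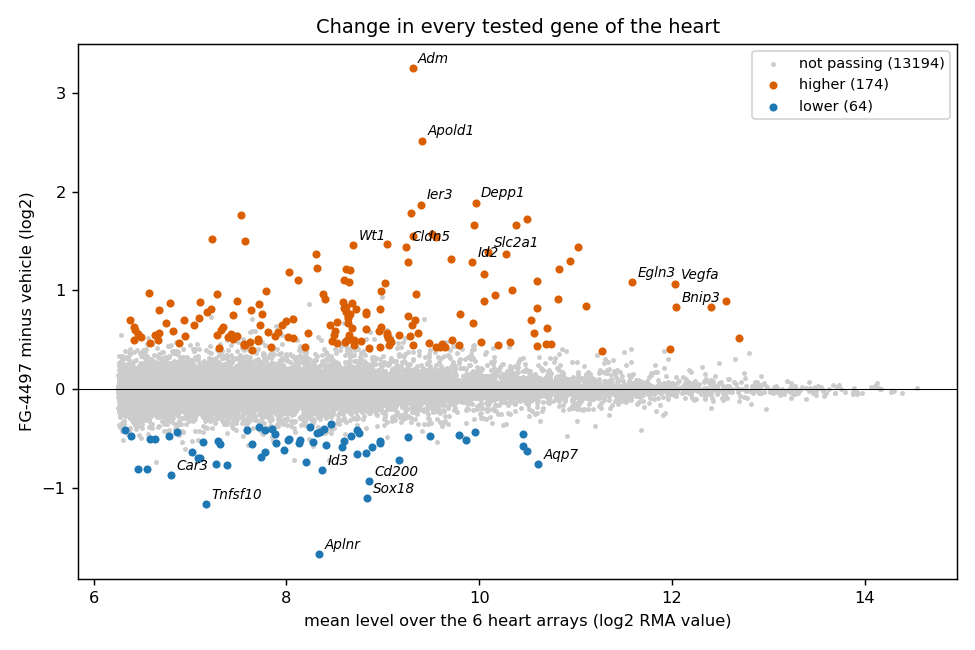
Change in each of the 13432 tested genes (FG-4497 minus vehicle, log2, vertical axis) against the mean level over the 6 heart arrays (log2 RMA value, horizontal axis). Orange points are the 174 genes that were higher and blue points the 64 that were lower at an adjusted p under 0.05; Adm stands at 3.25 and Aplnr at -1.68.

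The 3 genes named as markers of the response all rose. Adm, which encodes the vasodilator peptide adrenomedullin, had log2 levels of 7.65, 7.76 and 7.65 in the vehicle hearts and 10.84, 10.98 and 10.98 in the treated hearts. Its change of 3.25 ± 0.08 (SE, n = 3 against 3), a 9.5-fold rise, was the largest of any tested gene (limma adjusted p = 1.81e-08). Egln3, the EglN member that is itself a well-known HIF target, read 11.15, 10.98 and 11.01 with vehicle and 12.05, 12.14 and 12.20 with FG-4497. It rose by 1.08 ± 0.08, or 2.12-fold (adjusted p = 7.99e-05), with every treated heart above every vehicle heart. Vegfa, the main angiogenic growth factor, lay at 11.45, 11.54 and 11.52 in vehicle hearts and at 12.52, 12.54 and 12.64 in treated hearts, a 2.09-fold rise (1.06 ± 0.08, adjusted p = 5.38e-05).

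Other components of the sensing machinery did not pass the test. Of 11 tested oxygen sensors and HIF subunits, Egln3 was called and the other 10 were not, and the median change of the list was -0.02. Egln1, the main HIF hydroxylase, read 11.37, 11.34 and 11.50 with vehicle and 11.63, 11.66 and 11.65 with FG-4497, so the groups did not overlap, and its change of 0.24 ± 0.08 gave an adjusted p of 0.225. It passed in 1 of 15 alternative analyses (adjusted p from 0.0274 to 0.465). Egln2 changed by 0.14 (adjusted p = 0.711). Hif1a, the HIF-1 alpha subunit, read -0.25 (adjusted p = 0.32) and Epas1, the HIF-2 alpha subunit, -0.07 (adjusted p = 0.889). These values are transcript levels and do not report the amount of HIF protein.

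The stretches before the transcription starts of 6 genes of the response are shown because they hold the core HIF letters within 250 bases of the start. Each is the 250 bases before the start, 5′ to 3′ on the gene's strand, from RefSeq on GRCm38.p6, with every ACGTG or GCGTG, or its reverse complement CACGT or CACGC, in capitals. The coordinates are chr7:110627407-110627656 (plus strand) for Adm, chr13:6648772-6649021 (minus) for Pfkp, chr4:119108495-119108744 (plus) for Slc2a1, chr8:45999851-46000100 (minus) for Ankrd37, chr11:120948817-120949066 (plus) for Slc16a3 and chr12:54203875-54204124 (minus) for Egln3.
Adm: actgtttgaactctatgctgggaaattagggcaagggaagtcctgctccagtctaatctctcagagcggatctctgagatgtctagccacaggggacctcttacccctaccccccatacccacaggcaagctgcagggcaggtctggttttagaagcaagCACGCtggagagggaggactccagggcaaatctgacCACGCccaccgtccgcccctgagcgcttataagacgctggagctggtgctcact
Pfkp: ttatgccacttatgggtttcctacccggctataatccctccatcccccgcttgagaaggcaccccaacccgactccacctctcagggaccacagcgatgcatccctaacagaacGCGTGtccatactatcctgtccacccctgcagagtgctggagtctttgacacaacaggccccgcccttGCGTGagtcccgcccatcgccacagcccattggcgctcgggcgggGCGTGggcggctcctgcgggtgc
Slc2a1: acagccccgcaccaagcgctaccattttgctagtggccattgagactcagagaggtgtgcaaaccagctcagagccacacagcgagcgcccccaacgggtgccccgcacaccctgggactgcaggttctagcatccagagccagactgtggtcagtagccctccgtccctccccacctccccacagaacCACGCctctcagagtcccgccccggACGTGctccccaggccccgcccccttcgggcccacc
Ankrd37: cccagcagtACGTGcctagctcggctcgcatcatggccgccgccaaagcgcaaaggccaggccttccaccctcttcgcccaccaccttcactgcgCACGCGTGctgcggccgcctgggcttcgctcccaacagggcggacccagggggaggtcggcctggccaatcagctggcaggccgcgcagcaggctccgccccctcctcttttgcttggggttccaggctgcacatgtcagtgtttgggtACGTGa
Slc16a3: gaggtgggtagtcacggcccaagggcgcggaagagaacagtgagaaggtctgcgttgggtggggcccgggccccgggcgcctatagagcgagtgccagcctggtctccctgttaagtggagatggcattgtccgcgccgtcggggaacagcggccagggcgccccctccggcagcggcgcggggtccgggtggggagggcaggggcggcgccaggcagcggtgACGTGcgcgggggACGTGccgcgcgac
Egln3: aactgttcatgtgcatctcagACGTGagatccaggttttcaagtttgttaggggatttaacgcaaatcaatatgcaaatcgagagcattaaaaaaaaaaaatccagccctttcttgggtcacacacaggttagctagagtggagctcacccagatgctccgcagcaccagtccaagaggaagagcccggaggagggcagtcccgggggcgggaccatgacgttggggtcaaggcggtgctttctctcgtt
With the base before the start counted as -1, the first bases of the matches lie at -90 and -54 in Adm, at -136, -68 and -23 in Pfkp, and at -61 and -36 in Slc2a1. Ankrd37 has 4 matches, the nearest at -6, of which the pair at -155 and -152 overlap. Slc16a3 has ACGTG at -27 and again at -14. Egln3 has 1 match, at -229.

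Such letters are common near mouse gene starts, so their share in the called genes was set beside that in other genes, over windows of 250 bases before and 50 after the start and on both strands. A match was present in 14380 of 32851 promoters in the RefSeq table (43.77%). By gene, 95 of the 128 called higher genes with a promoter entry had one (74.22%), against 22 of 47 called lower genes (46.81%) and 6785 of 10489 genes tested and not called (64.69%). For ACGTG alone the shares were 43.75%, 17.02% and 28.12%. Within the lists of HIF targets, secreted signals and glycolysis described below, all 25 higher genes with an entry had a match and 20 of them had ACGTG, while 23 of 28 not called did and 14 had ACGTG. Of the 103 higher genes with an entry that are in none of these lists, 70 had a match (67.96%) and 36 had ACGTG (34.95%). A match says only that the letters are present, and the lists hold known HIF targets by choice.

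Among 14 tested secreted vascular signals under HIF control, 4 rose and 1 fell, with a median change of 0.32. After Adm and Vegfa, the higher members were Stc1, which encodes the glycoprotein hormone stanniocalcin, and Pgf, the placental growth factor that binds the receptor FLT1. Stc1 read 6.83, 6.84 and 6.72 with vehicle and 7.82, 7.60 and 7.85 with FG-4497 (0.96 ± 0.09, adjusted p = 0.000319). Pgf read 7.47, 7.26 and 7.46 against 7.99, 7.95 and 8.20 (0.65 ± 0.10, adjusted p = 0.00721). Both genes had every treated heart above every vehicle heart. Edn1, the precursor of the vasoconstrictor endothelin-1, went the other way, at 7.43, 7.22 and 7.36 with vehicle and 6.51, 6.73 and 6.86 with FG-4497. It fell by 0.63 ± 0.10 (adjusted p = 0.0121), and the call was lost without vehicle replicate 3 (adjusted p = 0.055). Apln, which encodes the peptide apelin, changed by 0.39 and did not pass (adjusted p = 0.0668).

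Receptors of these signals moved in both directions: of 16 tested, Flt1 rose, and Aplnr and Ramp2 fell, with a median of 0.09. Aplnr, the apelin receptor, had the largest fall of any tested gene. Its levels were 9.05, 9.07 and 9.41 in vehicle hearts and 7.48, 7.68 and 7.34 in treated hearts, a 3.2-fold fall (-1.68 ± 0.12, adjusted p = 4.53e-05). Ramp2, which joins the receptor CALCRL to make it respond to adrenomedullin, read 9.63, 9.39 and 9.51 against 9.02, 8.90 and 9.15 (-0.49 ± 0.10, adjusted p = 0.0315). Calcrl and the other RAMP genes did not pass: Calcrl changed by 0.20, Ramp1 by 0.09 and Ramp3 by 0.10. Flt1, a VEGF receptor, read 10.49, 10.57 and 10.49 against 11.10, 10.89 and 10.94 (0.46 ± 0.09, adjusted p = 0.0229), while Kdr (0.32, adjusted p = 0.185) and Nrp2 (0.39, adjusted p = 0.0875) did not pass. The calls of Flt1 and Ramp2 are borderline: Flt1 lost its call without vehicle replicate 1, 2 or 3 or FG-4497 replicate 1 or 3 (adjusted p = 0.0543 to 0.106), and Ramp2 without vehicle replicate 1 or 3 or FG-4497 replicate 1 or 2 (0.0918 to 0.115). With no filter on low values both were lost (0.0719 and 0.0925), and Flt1 also with the replicate number as a block (0.0543).

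**Figure D2:**
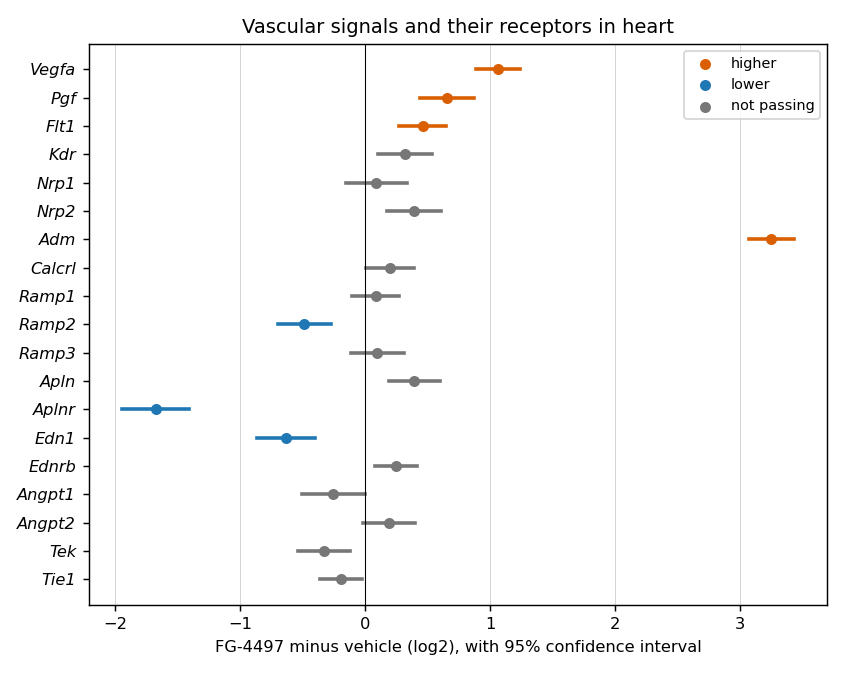
Change in vascular signals and their receptors in heart (FG-4497 minus vehicle, log2, horizontal axis), as the limma estimate (point) with its 95% confidence interval (line), 3 hearts against 3. Adm (3.25), Vegfa (1.06), Pgf (0.65) and Flt1 (0.46) were higher, Aplnr (-1.68), Edn1 (-0.63) and Ramp2 (-0.49) were lower, and the genes in grey did not pass.

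The list of intracellular HIF targets had the largest share of called genes among the 36 lists examined. It holds known HIF targets by choice, and the lists were chosen with earlier results of these data known, so the ranking describes the lists only. Of 33 tested members 20 rose (60.6%, against 1.3% of all genes tested) and none fell, and the median change was 0.52. Ero1a, the oxidase that drives disulphide formation in the endoplasmic reticulum, read 9.21, 8.95 and 9.18 with vehicle and 10.80, 10.84 and 10.69 with FG-4497, a 3.17-fold rise (1.66 ± 0.09, adjusted p = 8.64e-06). Ankrd37, a small ankyrin-repeat gene, read 7.59, 7.55 and 7.74 against 8.91, 9.12 and 8.95 (1.37 ± 0.09, adjusted p = 2.76e-05). The arrays of both genes lay far apart relative to their spread, with SDs of 0.08 to 0.15 in each group. Bhlhe40, a transcriptional repressor that also acts in the circadian clock, varied more between vehicle hearts, at 8.94, 7.96 and 8.30, against 10.22, 10.19 and 10.12 with FG-4497 (1.78 ± 0.19, adjusted p = 0.000792).

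Hilpda, a small lipid droplet protein that inhibits triglyceride breakdown, had levels of 6.40, 6.45 and 6.56 in vehicle hearts, close to the filter, and 8.07, 7.97 and 7.94 in treated hearts (1.52 ± 0.08, adjusted p = 7.42e-06). Ddit4, which inhibits the growth kinase complex mTORC1, rose by 1.37 (9.63, 9.54 and 9.61 against 11.32, 10.71 and 10.84; adjusted p = 0.000466). Plod2 and P4ha2, both hydroxylases that modify collagen, rose by 1.32 and 0.72, and Lox, the enzyme that cross-links it, rose by 0.90. Bnip3, a mitophagy receptor on the outer mitochondrial membrane, rose by 0.83 from an already high level (11.60, 11.66 and 11.63 against 12.49, 12.55 and 12.33). Its paralogue Bnip3l changed by 0.30 and did not pass (adjusted p = 0.11). The histone demethylase genes Kdm3a (0.81), Kdm6b (0.48) and Kdm4b (0.41) rose, as did Ndrg1 (0.95), Ak4, a mitochondrial adenylate kinase (0.84), and Cited2 (0.62, adjusted p = 0.0496), which encodes a protein that competes with HIF for its coactivator. Hmox1, haem oxygenase 1, changed by 0.93 with overlapping groups (9.27, 8.04 and 8.25 against 9.89, 9.71 and 8.76) and did not pass (adjusted p = 0.275, and 0.0434 to 0.688 over the alternatives). Of these smaller rises, Kdm6b lost its call in 3 of 15 alternative analyses (adjusted p up to 0.0541), Kdm4b in 9 (up to 0.137) and Cited2 in 8 (up to 0.17). The P4ha2, Bnip3, Bnip3l, Ak4, Cited2, Kdm and Ndrg1 values were picked out after they had been seen. The count of 20 ranged from 14 to 25 across the alternative analyses, with 14 when FG-4497 replicate 1 was left out.

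**Figure D3:**
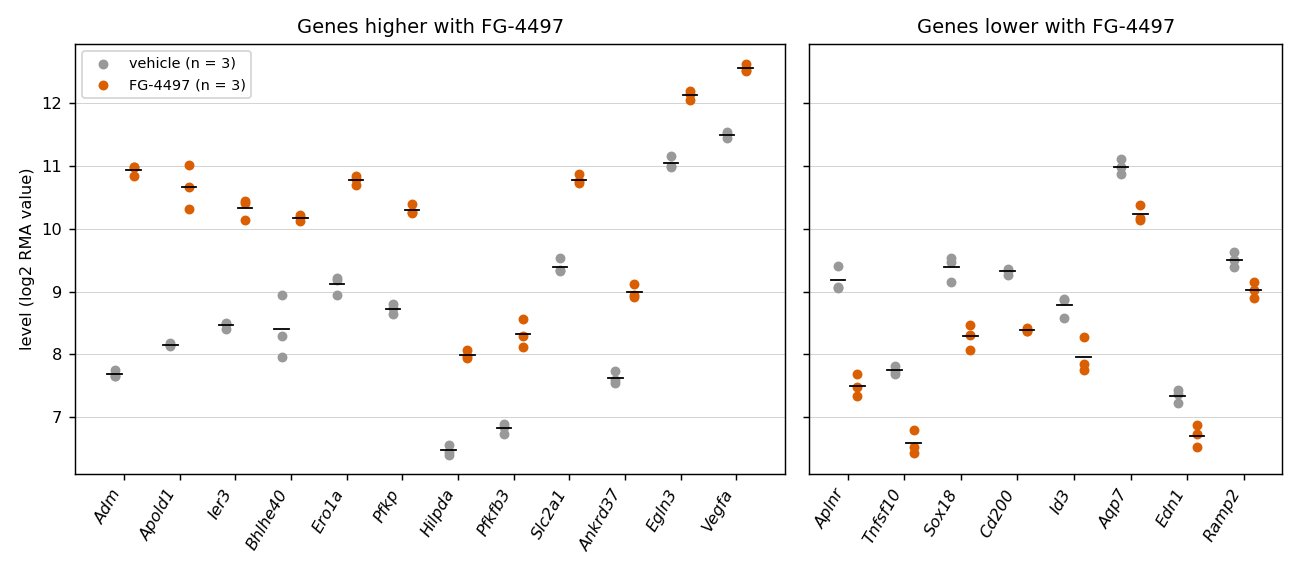
Levels of 12 genes that were higher and 8 that were lower with FG-4497 (log2 RMA value, vertical axis), with 1 point per heart (grey vehicle, orange FG-4497, n = 3 each) and a bar at the group mean. In each gene shown the groups do not overlap; Adm lies between 7.65 and 7.76 with vehicle and between 10.84 and 10.98 with FG-4497.

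In several families of glycolysis and glucose transport genes some members were called and others were not. Of 26 tested, 9 rose and none fell, with a median change of 0.17. Slc2a1, the glucose transporter GLUT1, read 9.33, 9.34 and 9.53 with vehicle and 10.76, 10.73 and 10.87 with FG-4497, a 2.61-fold rise (1.39 ± 0.09, adjusted p = 1.96e-05). Slc2a4, the insulin-responsive transporter GLUT4 of muscle, changed by -0.02 (adjusted p = 0.98). Among the phosphofructokinase subunits, Pfkp read 8.64, 8.74 and 8.81 against 10.39, 10.26 and 10.25, a 2.97-fold rise (1.57 ± 0.08, adjusted p = 7.42e-06). Pfkl, the liver-type subunit, rose by 0.89, whereas the muscle-type subunit Pfkm changed by 0.01 (adjusted p = 0.99). Pfkfb3, which makes the activator of that enzyme, read 6.85, 6.73 and 6.89 against 8.56, 8.11 and 8.29, a 2.82-fold rise (1.50 ± 0.11, adjusted p = 6.14e-05), and its paralogue Pfkfb2 changed by 0.05.

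Further along the pathway Pgam1, a phosphoglycerate mutase, rose by 0.70, Ldha, lactate dehydrogenase A, by 0.52, and Slc16a3, the lactate exporter MCT4, by 1.10 (7.34, 7.79 and 7.57 against 8.63, 8.59 and 8.79; adjusted p = 0.000595). Their paralogues did not pass: Pgam2 changed by 0.17, Ldhb by -0.04 and Slc16a1, the transporter MCT1, by 0.06. Hk2 (0.44) and Slc2a3 (0.55) also rose, while Hk1 changed by -0.04. Hk2 lost its call in 6 of 15 alternatives (adjusted p up to 0.0784) and Slc2a3 in 3 of 14 (up to 0.0775). Whether paralogues differ in their change was not tested. The paralogues that did not pass, and Ldha, Hk2 and Slc2a3, were picked out after their values had been seen. The count of 9 ranged from 7 to 12 over the alternatives.

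Mitochondrial energy genes showed little movement in the same hearts. None of 27 oxidative phosphorylation genes and none of 24 genes of fatty acid uptake and oxidation were called by limma, nor did any reach an unadjusted p under 0.05. Their changes ran from -0.06 to 0.10 and from -0.15 to 0.29, with medians of 0.0085 and 0.0067. Among 25 genes of the TCA cycle and pyruvate entry limma called 0 and 4 had an unadjusted p under 0.05. Of these genes, Pdk1, a HIF target that inhibits pyruvate dehydrogenase, had the smallest adjusted p (0.33, adjusted p = 0.0707). Its groups did not overlap (9.95, 9.98 and 10.05 against 10.36, 10.31 and 10.29), and it passed in 3 of 15 alternatives, with adjusted p from 0.00985 to 0.21. Pdk4, the isoform induced by fasting, changed by 0.36 (adjusted p = 0.172). Genes of the lipoprotein lipase pathway and lipid droplets had 3 of 21 higher (median 0.15): Hilpda, G0s2, an inhibitor of the lipase ATGL, at 0.83 (adjusted p = 0.00462), and the fatty acid carrier Fabp5 at 0.63 (adjusted p = 0.0126), the last lost without vehicle replicate 2 or 3 or FG-4497 replicate 2 or 3 (0.0513 to 0.0632). Aqp7, the glycerol channel, fell from 10.87, 10.99 and 11.12 to 10.18, 10.14 and 10.37 (-0.76 ± 0.10, adjusted p = 0.00243).

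**Figure D4:**
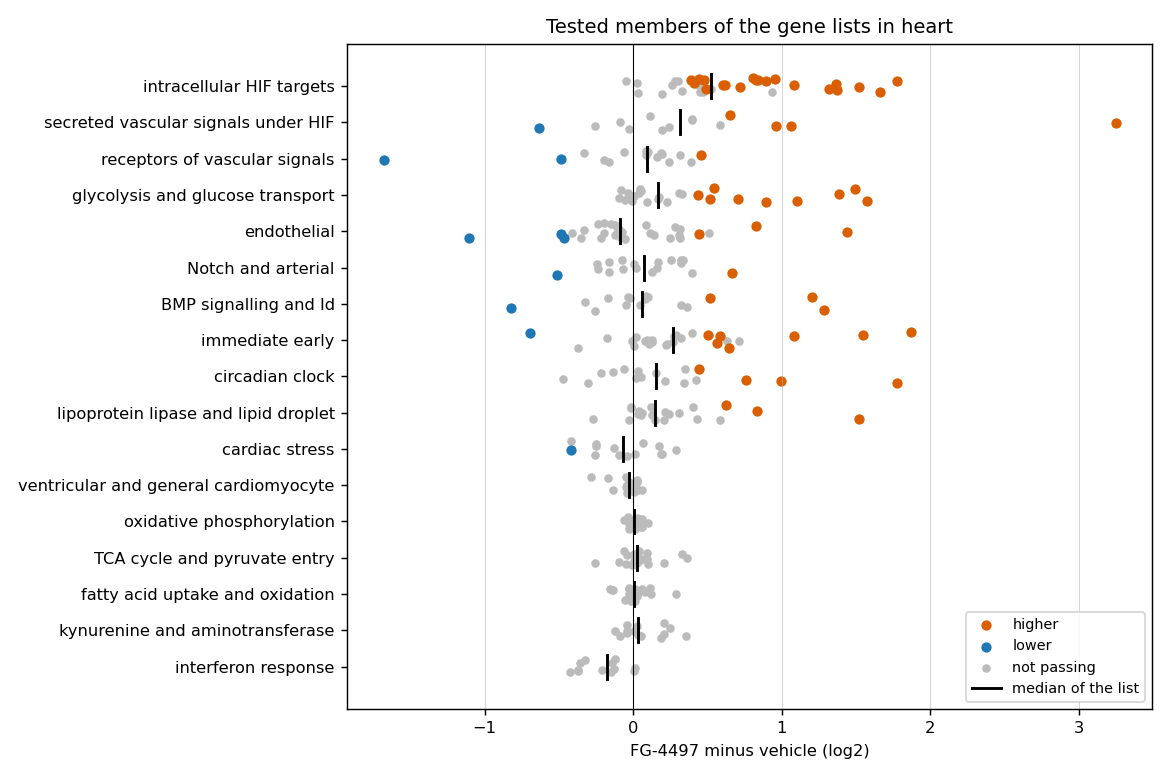
Change of each tested member of 17 gene lists in heart (FG-4497 minus vehicle, log2, horizontal axis), orange where higher, blue where lower and grey where not passing at an adjusted p under 0.05; the bar marks the median of the list. Intracellular HIF targets have a median of 0.52 with 20 of 33 members higher, whereas oxidative phosphorylation and fatty acid oxidation have medians of 0.0085 and 0.0067 with no member called.

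Endothelial genes did not move as a block. Of 30 tested, Cldn5, Icam2 and Rasip1 rose and Sox18, Ramp2 and Prox1 fell, with a median of -0.09. These calls are 20% of the list, against 1.77% of all genes tested. An unadjusted limma p under 0.05 was reached by 18 of the 30, against 1427 of all 13432 genes, and 12 of the 30 changes were positive. Cldn5, the tight junction protein claudin-5, read 8.48, 8.61 and 8.48 with vehicle and 9.72, 9.90 and 10.26 with FG-4497, a 2.71-fold rise (1.44 ± 0.13, adjusted p = 0.00016). Sox18, a transcription factor of vascular and lymphatic development, read 9.16, 9.54 and 9.47 against 8.07, 8.47 and 8.31 and fell 2.15-fold (-1.11 ± 0.13, adjusted p = 0.00106). Both sets of hearts were fully separated for these genes. Icam2, an adhesion molecule, rose by 0.82 (adjusted p = 0.00334). Broad endothelial markers did not pass: Pecam1 changed by 0.11 and Cdh5 by -0.12, and the mean over the 30 genes lay between 9.28 and 9.33 in the vehicle hearts and between 9.26 and 9.33 in the treated hearts. Prox1, the lymphatic regulator (-0.46, adjusted p = 0.0208), lost its call without vehicle replicate 2 or 3 or FG-4497 replicate 1 or 2 (0.0788 to 0.108), and Rasip1 (0.44, adjusted p = 0.0318) without vehicle replicate 1, 2 or 3 or FG-4497 replicate 1 or 3 (0.0788 to 0.112). With no filter on low values both were lost (0.0669 and 0.0943), and Rasip1 also with the replicate block (0.0683).

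The largest rises and falls also included genes outside the lists above. Apold1, an endothelial gene of the early response to hypoxia and injury, read 8.18, 8.13 and 8.14 with vehicle and 11.01, 10.32 and 10.67 with FG-4497, a 5.72-fold rise (2.52 ± 0.14, adjusted p = 8.64e-06). The vehicle hearts lay close together, while the treated hearts differed among themselves and all lay far above them. Adamts9, a secreted protease that cleaves matrix proteoglycans, rose by 1.72 (9.70, 9.55 and 9.65 against 11.37, 11.30 and 11.38), and its 5 other probe sets read 1.13 to 1.57. Depp1, a gene under control of the FOXO factors, read 9.26, 8.63 and 9.17 against 11.19, 10.73 and 10.80 (1.89 ± 0.17, adjusted p = 0.000194). Maff, a small MAF transcription factor, read 6.62, 6.73 and 6.59 against 8.45, 8.05 and 8.72 (1.76 ± 0.14, adjusted p = 9.6e-05). Every treated heart lay above every vehicle heart in both. Tiparp, a mono-ADP-ribosyltransferase induced by the aryl hydrocarbon receptor, rose by 1.55 (adjusted p = 8.64e-06), and Phactr4, a regulator of protein phosphatase 1 and actin, by 1.47 (adjusted p = 0.000174). Nt5e, the enzyme CD73 that makes extracellular adenosine, rose by 1.16 (adjusted p = 0.000303). Tnfsf10, the death ligand TRAIL, fell from 7.74, 7.69 and 7.81 to 6.42, 6.80 and 6.52 (-1.17 ± 0.10, adjusted p = 0.000195). Cd200, a surface protein that restrains myeloid cells, fell from 9.27, 9.37 and 9.33 to 8.42, 8.37 and 8.38 (-0.94 ± 0.08, adjusted p = 9.6e-05). Kitl, the ligand of the receptor KIT, fell by 0.72 (adjusted p = 0.00849). The protocadherin Pcdh18 fell by 0.77 (adjusted p = 0.00119) and the docking protein gene Dok4 by 0.76 (adjusted p = 0.0061). Akr1c14, an aldo-keto reductase, fell by 0.70 (adjusted p = 0.0121), lost without FG-4497 replicate 3 (0.0532), and the pseudogene BC023105 fell by 0.81 (adjusted p = 0.00918), lost with all 18 arrays in the fit (0.199).

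The BMP and Notch pathways each held opposite changes. Among 16 tested genes of BMP signalling and the Id family 3 rose and 1 fell, with a median of 0.06. Id2 read 9.36, 9.21 and 9.30 against 10.51, 10.82 and 10.38 (1.28 ± 0.11, adjusted p = 0.00016), while Id3, its relative among the inhibitors of DNA binding, read 8.89, 8.58 and 8.87 against 7.76, 7.85 and 8.27 (-0.82 ± 0.14, adjusted p = 0.0135). Id1 changed by -0.32 and did not pass. The inhibitory SMADs, Smad7 (1.20, adjusted p = 0.000472) and Smad6 (0.52, adjusted p = 0.0112), both rose. Among 18 Notch and arterial genes, Hey1, a Notch target, rose by 0.66 (adjusted p = 0.0146) and Efnb2, the arterial ephrin-B2, fell by 0.51 (adjusted p = 0.0176), with a median of 0.07. Leaving out 1 heart ended the calls of Id3 (without vehicle replicate 3 or FG-4497 replicate 2, 0.0632 and 0.0692) and of Smad6 (without vehicle replicate 3 or FG-4497 replicate 3, 0.0604 and 0.0509). It also ended those of Hey1 (vehicle replicates 1 and 2, FG-4497 replicates 2 and 3, 0.0515 to 0.0698) and Efnb2 (replicates 2 and 3 of either group, 0.0678 to 0.0892), the latter lost also with no filter (0.0584) and with the replicate block (0.0515).

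Immediate early genes, which respond within minutes to growth factors or to handling of tissue, held 7 members that rose and 1 that fell among 27 tested, with a median of 0.27. Their mean level lay between 8.04 and 8.06 in vehicle hearts and between 8.35 and 8.49 in treated hearts, and its part in the other changes was not tested. Ier3, an early gene that limits cell death, read 8.41, 8.50 and 8.48 against 10.13, 10.45 and 10.42, a 3.65-fold rise (1.87 ± 0.10, adjusted p = 7.42e-06). Fosl2, a subunit of the AP-1 factor, read 8.90, 8.75 and 8.69 against 10.33, 10.10 and 10.55 (1.54 ± 0.12, adjusted p = 6.07e-05). The classical members moved less: Junb rose by 0.64, Fosb by 0.59, Btg2 by 0.56 and Fos by 0.50, while Jun (0.08) and Atf3 (0.09) did not pass. Fos lost its call in 7 of 14 alternatives (adjusted p up to 0.284), Btg2 in 7 of 15 (up to 0.107) and Fosb with all 18 arrays in the fit (0.0965). Egr1 varied widely between hearts, at 7.65, 8.33 and 8.33 against 9.58, 9.15 and 8.84 (1.08 ± 0.21, adjusted p = 0.0273), and lost its call without FG-4497 replicate 1 or 2 (0.0712 and 0.094), with no filter (0.0739), with a trended and robust prior (0.172) and with the replicate block (0.0717). Ier5 fell by 0.70 (adjusted p = 0.0181), a call lost without vehicle replicate 3 or FG-4497 replicate 1 or 3 (0.0683 to 0.0812) or with no filter (0.0566). The count of 7 became 4 without FG-4497 replicate 1 and also with no filter on low values. Among 16 heat shock and chaperone genes limma called 0, and 0 had an unadjusted p under 0.05.

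Stress and timing lists gave 0 to 4 calls each. Of 17 clock genes 4 rose (median 0.16): Bhlhe40, the repressors Ciart (1.00, adjusted p = 0.00254) and Nfil3 (0.76, adjusted p = 0.00331), and Rora (0.44, adjusted p = 0.0402). These calls are 23.5% of the list, against 1.77% of all genes tested, and 9 of the 17 had an unadjusted limma p under 0.05. The core genes Arntl (0.02) and Clock (-0.14) did not pass. Changes in the clock list ran from -0.47 to 1.78, and the smallest adjusted p that did not pass was 0.0566. Of 15 glucocorticoid and fasting genes 2 rose (13.3%, median 0.29, 7 unadjusted), the metallothionein Mt2 (0.89, adjusted p = 0.0115) and Fkbp5, a chaperone of the glucocorticoid receptor (0.76, adjusted p = 0.019). Mt2 lost its call without vehicle replicate 3 or FG-4497 replicate 3 (0.052 and 0.0561), with a trended and robust prior (0.136) and with all 18 arrays in the fit (0.0956). Fkbp5 lost it without vehicle replicate 2 or 3 or FG-4497 replicate 1 or 3 (0.0664 to 0.089), and Rora without any 1 heart other than FG-4497 replicate 2 (0.0515 to 0.154), and both were lost with no filter (0.0585 and 0.116). In the list of 15 integrated stress and endoplasmic reticulum genes limma called 0 (1 at an unadjusted p under 0.05), and Chac1 had the smallest adjusted p (0.67, adjusted p = 0.0719). Chac1 passed in 4 of 15 alternatives (adjusted p from 0.031 to 0.233). In 21 iron and haem genes it called 0 (3 unadjusted). In 14 tested genes of kynurenine metabolism and aminotransferases it called 0 (2 unadjusted), and Kyat1 changed by -0.04, Kyat3 by 0.21 and Got2 by 0.0047, while 6 more of that list lay below the filter.

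The remaining lists held 0 to 2 calls each. Of 16 genes of vascular tone, Nt5e rose, as did Ace, the angiotensin-converting enzyme (9.42, 9.36 and 9.37 against 9.80, 9.70 and 9.92; 0.42 ± 0.08, adjusted p = 0.0313). These 2 calls are 12.5% of the list, against 1.77% of all genes tested, and 7 of the 16 had an unadjusted limma p under 0.05. Ace lost its call without any 1 heart other than FG-4497 replicate 2 (0.0717 to 0.127), with no filter (0.0941), with the replicate block (0.0587) and with all 18 arrays in the fit (0.0528), and the list had a median of -0.07. Of 12 genes of the NRF2 oxidative stress response and metallothioneins, Mt2 alone was called (6 unadjusted), and the median was -0.01. Of 15 cell cycle genes (2 unadjusted) Ccne2, a cyclin of the entry into DNA replication, rose by 0.56 (adjusted p = 0.0444), while Mki67 (-0.13) did not pass and Top2a lay below the filter. The Ccne2 call was lost without any 1 heart other than vehicle replicate 1 (0.0603 to 0.142), with no filter (0.118) and with quantile normalisation repeated (0.0539). Limma called 0 of 8 atrial genes (1 unadjusted) and 0 of 5 nerve and Schwann cell genes (0 unadjusted).

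The cardiomyocyte programme served as the check of the tissue and showed no called change. Myh6, Myl2 and Tnnt2, which encode contractile proteins of the cardiomyocyte, had mean levels of 13.91 to 14.29 in both groups. Of 20 cardiomyocyte genes limma called 0 and 1 had an unadjusted p under 0.05, with a median of -0.03. Their mean level lay between 12.74 and 12.78 in vehicle hearts and between 12.70 and 12.74 in treated hearts. Of 14 cardiac stress genes, Postn, a matrix protein of activated fibroblasts, fell by 0.42 (adjusted p = 0.0315) and none rose. That call was lost without any 1 heart other than vehicle replicate 2 (0.0678 to 0.152), with no filter (0.0943), with the replicate block (0.0709) and with all 18 arrays in the fit (0.722). Nppa and Nppb, which encode the natriuretic peptides, changed by 0.19 and -0.42 and did not pass (adjusted p = 0.76 and 0.79). Of 18 ion channel genes limma called 0 (3 unadjusted), the nearest being the potassium channels Kcnj2 (0.38, adjusted p = 0.0579) and Kcna5 (0.58, adjusted p = 0.0704). Kcnj2 passed in 5 of 15 alternatives (adjusted p from 0.0218 to 0.19) and Kcna5 in 6 of 15 (0.00885 to 0.21).

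Markers of other cells varied by gene. Fibroblast genes had Lox higher and Postn lower among 19 tested, and smooth muscle and pericyte genes had Higd1b higher (0.70) among 16. Of 17 macrophage genes limma called 0 (4 unadjusted). Wt1, a transcription factor of the epicardium that is also made in hypoxic vessels, read 8.06, 8.06 and 7.76 against 9.33, 9.46 and 9.46, a 2.75-fold rise (1.46 ± 0.10, adjusted p = 3.56e-05). The other 9 tested epicardial and mesothelial genes did not pass, among them Upk3b (-0.61, adjusted p = 0.18) and Msln (-0.34, adjusted p = 0.0989). The median of the 10 tested was -0.11, and 4 of the 10 changes, that of Wt1 among them, were positive. The mean over all 12 on the array, which includes the rise of Wt1, was 6.54 to 6.78 with vehicle and 6.59 to 6.65 with FG-4497. Of 12 listed erythroid genes 5 were on the array as single genes, with no globin among them, and all 5 were tested. Of these, Alas2, the haem synthesis enzyme of red cells, rose by 0.96 (8.84, 9.05 and 8.71 against 9.52, 10.14 and 9.84; adjusted p = 0.00806), lost with all 18 arrays in the fit (0.0519). The mean of the 5, which includes the rise of Alas2, was 7.32 to 7.48 with vehicle and 7.47 to 7.85 with FG-4497, and 3 of the 5 changes were positive. The neutrophil gene S100a9 rose by 0.72 (adjusted p = 0.00947), lost without FG-4497 replicate 3 (0.0509) and with all 18 arrays in the fit (0.0779). Its partner S100a8 lay below the filter and was not tested, at 5.49, 5.37 and 5.48 with vehicle and 6.15, 6.02 and 5.94 with FG-4497. The neutrophil gene Retnlg, also not tested, read 5.04, 5.22 and 4.98 against 6.18, 5.63 and 6.19, so in both the treated hearts were the higher. Other neutrophil genes below the filter went both ways, with Ly6g at 0.31, Mpo at -0.34 and Camp at -0.16. S100a9 was the only gene called of 5 tested in the lymphocyte and neutrophil list, whose median was -0.02, and 10 lay below the filter. Car3, the only gene called of 9 tested in the adipocyte list (median -0.05), fell by 0.88 (adjusted p = 0.015). That call was lost without FG-4497 replicate 1 or 3 (0.0572 and 0.0678). The adipocyte markers Adipoq (-0.27, adjusted p = 0.543) and Plin1 (0.13, adjusted p = 0.836) did not pass. Adipocyte list means, which include the fall of Car3, were 7.13 to 7.18 with vehicle and 6.96 to 7.08 with FG-4497, and 3 of the 9 tested changes were positive. The part of these cells in the results was not tested. The lung marker Sftpc and the atrial marker Sln lay below the filter in all 6 arrays, and the 8 tested carry-over genes had 0 called by limma (1 unadjusted).

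The heart change was then set against the change with EglN1 loss in skeletal muscle, in 1 fit of 12 arrays per muscle that tests the difference itself. Agent, tissue and experiment differ together here and cannot be told apart. EglN1 transcript in KO muscle minus WT was -0.20 in soleus (adjusted p = 0.504) and -0.14 in quadriceps (adjusted p = 0.681), and neither passed. The difference between heart and soleus was called in 200 of 13384 genes (1.49%), with 121 more positive and 79 more negative in heart. Between heart and quadriceps it was called in 235 of 13401 genes (1.75%), 152 and 83. Of the 174 genes that rose in heart, 171 were tested with soleus, and the change was larger in heart for 98 of them and not shown to differ for 73. With quadriceps the numbers were 105 and 64 of 169. Of the 64 that fell, 38 of 62 and 42 of 61 were more negative in heart. These genes were chosen on the heart arrays that also enter the difference, so its direction was favoured by the choice and the counts describe them only.

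Named genes of the HIF pathway show the size of these differences. Of 33 tested intracellular HIF targets the change was more positive in heart for 12 against soleus and 17 against quadriceps, and none was called in either muscle. Adm read 0.39 in soleus and 0.11 in quadriceps, a difference of 2.85 ± 0.14 (adjusted p = 2.24e-07) and 3.14 ± 0.19 (adjusted p = 2.95e-06) below heart. Vegfa was at -0.01 and 0.02 in the muscles and differed from heart in both (adjusted p = 0.000247 and 3.31e-05). Egln3 was at -0.12 in soleus, where the difference passed (adjusted p = 0.00333), and at 0.36 in quadriceps, where it did not (adjusted p = 0.166). Pfkfb3 fell by 1.14 in KO quadriceps (adjusted p = 0.00177) and so differed from heart by 2.64 ± 0.20. Aplnr, lower in heart, was at 0.63 in soleus and 0.49 in quadriceps, neither passing, and both differences passed (-2.31 ± 0.24 and -2.17 ± 0.21). Mid1ip1, a regulator of fatty acid synthesis, fell in heart (-0.66) and rose in KO quadriceps (0.72), although its other probe set read 0.04 in heart and the mean of both did not pass (adjusted p = 0.157). In the other direction Gdpd3, a phospholipase, rose by 4.01 in KO soleus and 3.59 in KO quadriceps and changed by 0.11 in heart. Elovl7, a fatty acid elongase, rose by 1.36 and 1.53 in KO soleus and quadriceps and read -0.51 in heart, not passing (adjusted p = 0.059). Its fall in heart passed in 5 of 14 alternatives (adjusted p from 0.016 to 0.215).

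**Figure D5:**
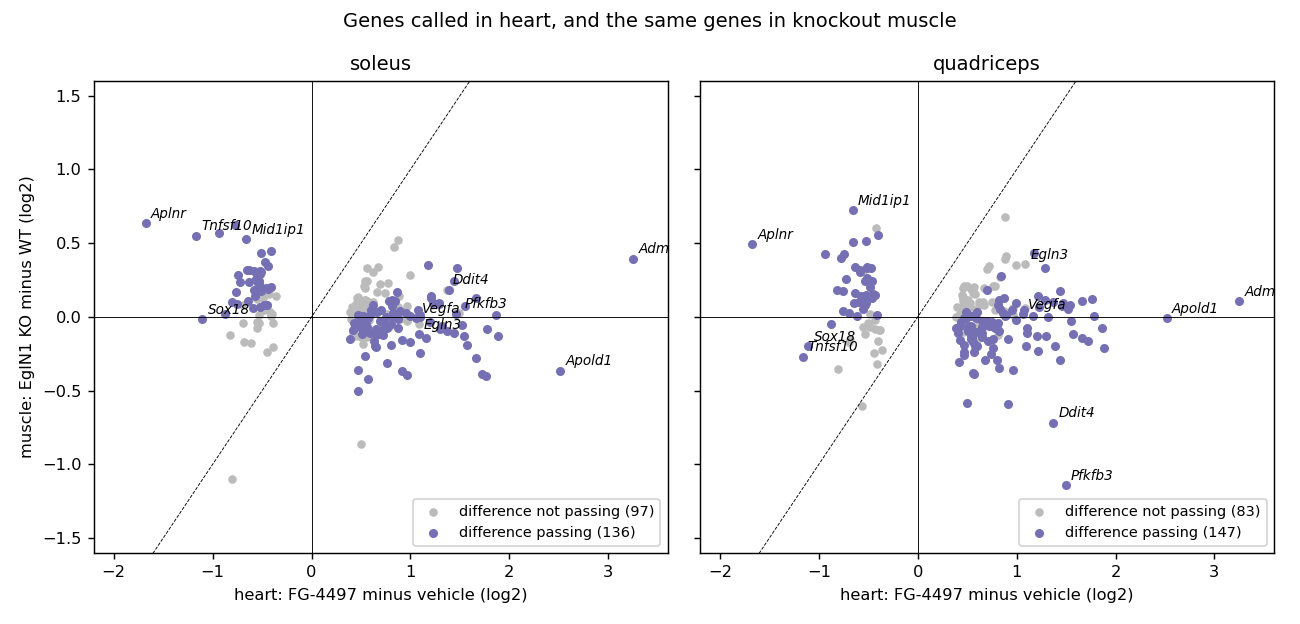
Genes called in heart, with the change in heart (FG-4497 minus vehicle, log2, horizontal axis) against the change in soleus (left) or quadriceps (right) of EglN1 KO minus WT mice (log2, vertical axis). Purple points are genes whose heart and muscle changes differed at an adjusted p under 0.05 (136 of 233 with soleus, 147 of 230 with quadriceps), the dashed line marks equal change, and Adm lies at 3.25 in heart and 0.39 in soleus.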

How the data were processed

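The series holds 18 mouse arrays, and the 6 of heart form the main comparison. The authors deposited log2 values from RMA (background correction, quantile normalisation and a summary per probe set), per the submitters' processing notes. Its version is not given in the sources used here, nor which arrays were normalised together. Quantile normalisation gives all arrays 1 distribution, so a shift of most genes would not be seen. Of 35556 probe sets 21789 name 1 gene, 1621 several and 12146 none; symbols were looked up by gene ID in the RefSeq GRCm38.p6 table (21698 found, 0 changed), and the brightest probe set stood for each of 19938 genes. Genes with a heart mean at or above the 40th percentile of probe sets (6.26) were tested with limma 3.58.1 in R 4.3.3 (lmFit, eBayes, n = 3 against 3, Benjamini-Hochberg over all genes tested, called under 0.05). Every adjusted p in the text is from limma. Array medians lay between 6.76 and 6.81, and correlations between hearts were 0.983 to 0.989 within and between groups. The number of arrays limits the precision: 3 against 3 cannot reach a p below 0.1 in an exact permutation test of 1 gene.

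The 36 gene lists (662 genes, 611 on the array) and the comparison itself were chosen with earlier results of these data known. Genes named were taken from the 15 largest rises and falls, preset sensors and markers, up to 6 called members of each list, or else the 2 with the smallest p, and up to 5 genes each way from the difference tests. List members named beyond this were chosen after their values were seen. The 15 alternatives changed the filter, normalisation, probe set rule, variance prior, array weights, replicate block, samples in the fit and each heart array in turn. The labels do not state that replicate numbers pair the hearts. Deviations from the group means of same-numbered hearts correlated at 0.18, 0.11 and -0.13, and those of differently numbered hearts at -0.27 to 0.17. So few correlations cannot settle whether hearts were paired. Motifs were searched with Python 3.11.15.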

Additional observations from a re-analysis of the deposited data

How the results depend on the processing

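All 238 genes kept their direction in every one of the 15 alternatives that tested them (192 genes were tested in 15, 45 in 14 and 1 in 13), and 104 (86 higher, 18 lower) were called in every alternative that tested them. The count of 238 became 147 with no filter, 372 with a trended and robust prior and 473 with all 18 arrays in the fit. The 174 higher genes became 115 with no filter and 301 with all 18 arrays, and the 64 lower genes 32 with no filter, 111 with the trended prior and 172 with all 18 arrays. Leaving out 1 heart gave 137 to 193 in all (137 without vehicle replicate 3, 144 without vehicle replicate 2 and 157 without FG-4497 replicate 1), 106 to 158 higher and 25 to 44 lower; fewer arrays enter these fits. For the other shifts the cause was not tested. With the replicate number as a block, though the labels do not state that it pairs hearts, 209 genes were called (156 higher, 53 lower). The differences from muscle kept within 1.5 times their counts, at 138 to 242 for soleus and 180 to 298 for quadriceps, over the 10 alternatives run for them; these left out the stricter filter, median centring, the mean of probe sets, the 18-array fit, the replicate block and any muscle array left out. Of 73 named called genes 48 were never lost and 25 were lost in at least 1 alternative, and 11 of 38 named genes that did not pass did so in at least 1; none reversed. The deposited values carry no detection call, so genes near the filter of 6.26 have no test of signal over background.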

Other observations

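Several more genes outside the lists rose; they were picked out after their values were seen. Spry4, an inhibitor of receptor tyrosine kinase signalling, rose by 1.29 (adjusted p = 4.53e-05), and the kinase genes Map3k1, Plk2 and Sik1 rose by 1.21, 1.18 and 1.10. Sik1 read 10.33, 9.89 and 9.94 with vehicle and 11.31, 10.93 and 11.21 with FG-4497. The guanylate-binding protein gene Gbp4 fell by 0.74 (adjusted p = 0.000911), from 8.67, 8.54 and 8.50 to 7.79, 7.80 and 7.90. In the list of interferon genes, which does not hold Gbp4, 0 of 12 were called by limma, 5 had an unadjusted p under 0.05 and the median was -0.18. Over all 13432 genes tested, 1427 had an unadjusted p under 0.05.

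Over all probe sets above the filter, 925 that name several genes gave 5 higher and 0 lower, and 5636 with no gene listed gave 23 higher and 3 lower, the largest rise among the latter being 1.87 and the largest fall -1.35. Acer2, an alkaline ceramidase, rose by 1.66 on its brightest probe set and read 0.26 on its other one.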
